A study of Mus musculus with 28 samples.

Results

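The effect of losing Ehmt1 was measured in mouse embryonic stem cells labelled as Zic2 knockouts, 32 h after the inhibitors that keep them naive had been withdrawn. The comparison set 2 libraries labelled Ehmt1/Zic2 KO (the double KO) against 2 libraries labelled Zic2 KO, and these 4 libraries were chosen from the 28 of the series by genotype and stage alone. No wild type (WT) library entered the comparison, and both groups carried the Zic2 KO label, so that Ehmt1 was the labelled difference between them. Since the Zic2 transcript did not mark the KO (values below), Zic2 KO and double KO stand throughout for the libraries labelled so.

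All cells were of RGd2, a female mouse stem cell line with a reporter labelled Rex1:GFPd2-IRES-Blasticidin, Rex1 being the naive gene Zfp42. They were grown on gelatin in N2B27 with 2i, which is CHIR99021, an inhibitor of Gsk3, with PD0325901, an inhibitor of Mek. Cells of the 2i stage were labelled ESC, and cells of the 32 h stage were taken after 2i had been withdrawn. The groups used were Zic2 KO and Ehmt1/Zic2 KO at both stages, and Ehmt1 KO and WT at 32 h (WT also in 2i), each with n = 2 polyA libraries made with a TruSeq mRNA kit. The KO libraries came from lines numbered KO1 and KO2 in each genotype, here clones 1 and 2, and the labels give neither the altered part of a gene nor whether equal numbers are related between genotypes. The 4 libraries held 23683147 and 24389250 counts in Zic2 KO and 28777604 and 26490625 in double KO cells. The p-values rest on a spread between libraries of a group that was pooled over all 8 polyA groups, WT and 2i libraries included. Libraries of the same clone at both stages were taken as independent. A change carried by both clones of a genotype cannot be told apart from an effect of the KO.

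Ehmt1, also called GLP, forms with Ehmt2 (G9a) the main enzyme that places dimethylation on lysine 9 of histone H3, a mark of repressed chromatin that spreads over silent genes. Zic2 is a zinc finger transcription factor that binds enhancers as stem cells leave the naive state. In that exit, factors of the naive network such as Esrrb, Nanog, Klf4 and Tfcp2l1 fall, and genes of the formative state that precedes germ layer commitment rise.

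The labels were checked first on the targeted genes. Ehmt1 (Entrez 77683, GRCm38.p6 chr2:24790769-24919643) stood at 152 and 147 CPM (counts scaled to library size) in the Zic2 KO libraries and at 30.5 and 28.8 CPM in the double KO libraries. The groups did not overlap, and the log2 fold change was -2.33 ± 0.17 (standard error, n = 2 libraries per group, adjusted p = 1.64e-06, edgeR quasi-likelihood test over 15667 genes). Zic2 (Entrez 22772, chr14:122475384-122480328) stood at 156 and 228 CPM in the Zic2 KO libraries and at 208 and 77.3 CPM in the double KO libraries, against 146 and 144 CPM in WT cells at 32 h. Its transcript thus did not mark the Zic2 KO, and within the double KO clone 1 was above clone 2. Between the groups it differed by -0.43 ± 0.39 on the log2 scale (adjusted p = 0.415, edgeR). Ehmt2, the partner enzyme, stood at 139 and 144 CPM against 112 and 163 CPM, with overlapping groups (-0.04 ± 0.19, adjusted p = 0.891, edgeR).

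Markers of stem cells were high in all 4 libraries, with Pou5f1 at 1144 and 1193 CPM in Zic2 KO and 1102 and 1119 CPM in double KO cells. Of the markers of other cell types none was at 0 counts in all 4 libraries. The summed level of 5 primitive endoderm markers was 15.1 and 16.3 CPM in Zic2 KO and 8.91 and 14.3 CPM in double KO cells. For 5 trophoblast markers it was 3.88 and 4.06 against 4.45 and 10.6 CPM, for 6 fibroblast markers 7.56 and 7.54 against 8.33 and 15.4 CPM, and for 4 primitive streak markers 5.28 and 5.54 against 9.55 and 11.6 CPM. Double KO clone 2 was thus the highest library for the trophoblast, fibroblast and primitive streak sums, and the part of such cells in the results was not tested. In bulk RNA, fewer cells of a type and less RNA per cell cannot be told apart.

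The levels of whole chromosomes differed between clones and bear on every list below. Over the 887 genes of chromosome 11 at 5 CPM or more, the median log2 difference from the Zic2 KO mean at 32 h was 0.41 in double KO clone 1 and 0.381 in clone 2. Over the 9402 genes at that level outside chromosomes 11 and 16, X included, it was -0.0581 and -0.101. Over 333 genes of chromosome 16 it was -0.03 in clone 1 and 0.44 in clone 2. The same rise on chromosome 11 stood in Ehmt1 KO clone 1 (0.415 against WT) but not in Ehmt1 KO clone 2 (-0.00893). Over 384 genes of X at that level it was 0.024 and -0.0217. In 2i the median log2 fold change was 0.394 for all genes tested on chromosome 11 and 0.271 for those on chromosome 16, beside 0.42 and 0.341 at 32 h. For all tested genes of X, low ones included, it was 0.236 in 2i and 0.12 at 32 h, where 27.6% of them were called higher. A change of a single gene on these chromosomes and the shift of its chromosome cannot be told apart, so members on chromosomes 11 and 16 are marked below and counts are also given without them.

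**Figure D1:**
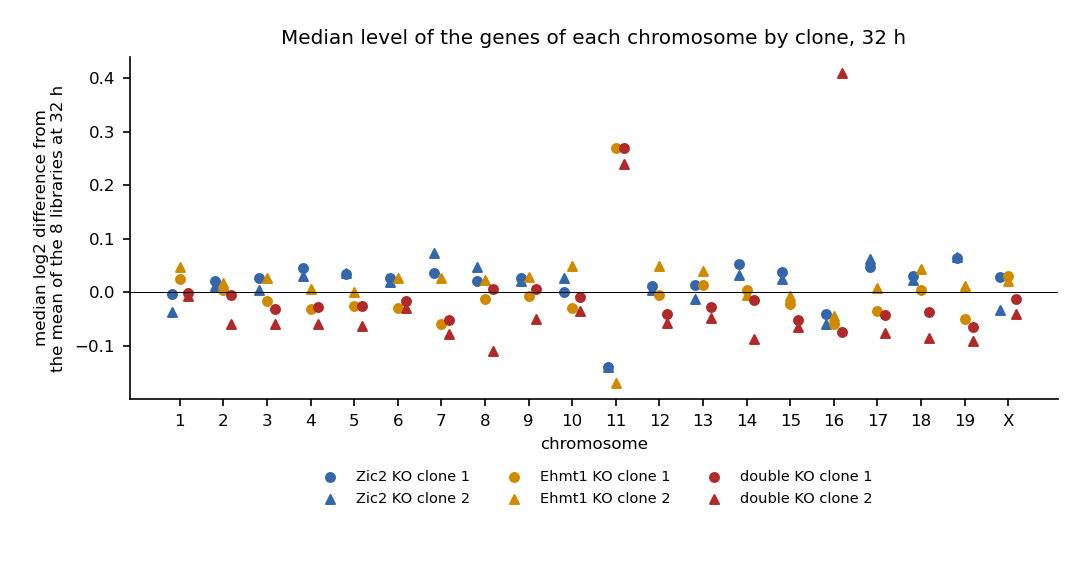
Median log2 difference of each library at 32 h from the mean of the 8 polyA libraries of that stage (y axis), over the genes at 5 CPM or more on each chromosome (x axis), with circles for clone 1 and triangles for clone 2 of Zic2 KO (blue), Ehmt1 KO (orange) and double KO (red). On chromosome 11 both double KO clones and Ehmt1 KO clone 1 lie at 0.24 to 0.27, and on chromosome 16 only double KO clone 2 lies apart, at 0.41.

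At an adjusted p under 0.05 (edgeR), 3135 genes (20% of the 15667 tested) were higher in the double KO than in the Zic2 KO, here called raised. Lower, here called lowered, were 2497 (15.9%), and 35.9% were called in all. Of the raised genes 445 lay on chromosome 11 and 135 on chromosome 16. By fitted fold change, 1935 of the raised and 898 of the lowered genes changed by at least 2-fold. For at least 16-fold it was 403 of the raised and 20 of the lowered genes. These counts include genes near 0 in Zic2 KO cells, whose folds are given below only as lower limits or with wide intervals. Such genes pass the filter on low counts only through groups in which they are higher. The excess of large rises is therefore no result. Both double KO libraries lay above both Zic2 KO libraries for 5838 genes (37.3%) and below them for 5733 (36.6%), so that this separation alone marks no gene. Without chromosomes 11 and 16, 2555 genes were called higher and 2394 lower among 13880. The number of called genes was 3358 without Zic2 KO clone 1 and 3131 without clone 2, and 4430 and 3814 without double KO clones 1 and 2, where the lone library left in a group is assumed to vary like the other groups. Of the 187 genes analysed by name, 168 were called, none took the opposite sign while called, and 114 kept their call under every alternative run.

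Genes near 0 in Zic2 KO cells were described by a limit. By a limit of 0.1 CPM or less in both Zic2 KO libraries and 1 CPM or more in both double KO libraries, 105 genes were switched on. These limits use the outcome, so that the direction of the 105 genes is set by their choice and is no result. Among the genes tested 458 were at 0.1 CPM or less in both Zic2 KO libraries, and such genes pass the filter on low counts only through groups in which they are higher. No gene met the reverse limits. Of the 105 genes, 93 were protein coding, 21 (20%) lay on X, where 3.95% of the tested genes lie, and 10 lay on chromosomes 11 or 16. The share of X among the 458 genes was not taken, so no enrichment on X can be read from these values. Near-identical Magea copies count separately among the 21. In 2i, 84 of them were also at 1 CPM or more in both double KO libraries. In WT cells at 32 h 89 were at 0.1 CPM or less in both libraries, and in Ehmt1 KO cells without a Zic2 KO label 65 were at 1 CPM or more in both.

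Promoters of the raised and lowered genes differed in their number of CG dinucleotides, and 4 are shown as examples of genes described next. Each is the 250 bases before the start of the most upstream RefSeq promoter window (GRCm38.p6), 5′ to 3′ on the strand of the gene. Capitals mark GAAA, any 2 bases and GAAA in Ddx60, a spacing found in elements bound by interferon regulatory factors, and every CG in the others. Ddx60 (chr8:61927837-61928086, plus strand) holds the motif 2 times and 5 CG in all, Nlrp4c (chr7:6044911-6045160, plus strand) and Magea8 (chrX:154995851-154996100, minus strand) hold 7 CG each, and Sox1 (chr8:12395269-12395518, plus strand) holds 29. The first 3 belong to genes that rose and the last to one that fell. Sox1 does not stand for the lowered genes, whose median over the longer windows below was 20 CG, as for all genes.
Ddx60: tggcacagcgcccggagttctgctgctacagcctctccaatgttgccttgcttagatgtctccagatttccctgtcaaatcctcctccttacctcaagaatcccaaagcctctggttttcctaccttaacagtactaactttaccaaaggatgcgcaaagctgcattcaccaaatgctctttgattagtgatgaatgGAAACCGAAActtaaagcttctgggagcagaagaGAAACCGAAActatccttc
Nlrp4c: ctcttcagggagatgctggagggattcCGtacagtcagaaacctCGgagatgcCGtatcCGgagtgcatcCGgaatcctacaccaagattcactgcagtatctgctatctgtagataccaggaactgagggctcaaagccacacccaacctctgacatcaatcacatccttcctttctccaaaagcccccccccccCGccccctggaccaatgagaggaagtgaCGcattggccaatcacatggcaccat
Magea8: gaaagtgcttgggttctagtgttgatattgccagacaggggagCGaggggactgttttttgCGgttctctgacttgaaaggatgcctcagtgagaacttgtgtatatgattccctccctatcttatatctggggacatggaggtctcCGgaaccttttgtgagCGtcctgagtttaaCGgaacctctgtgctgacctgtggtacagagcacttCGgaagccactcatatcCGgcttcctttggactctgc
Sox1: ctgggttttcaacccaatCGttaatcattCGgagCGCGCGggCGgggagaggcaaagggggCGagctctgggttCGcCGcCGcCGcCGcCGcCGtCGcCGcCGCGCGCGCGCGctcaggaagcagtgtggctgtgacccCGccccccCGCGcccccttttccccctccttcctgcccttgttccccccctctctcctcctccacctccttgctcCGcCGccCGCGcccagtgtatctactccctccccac

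Over the windows of 300 bases (250 before to 50 after the start), which 12234 of the tested genes have, the median number of CG was 20 for all genes, 16 for genes called higher and 20 for genes called lower. By fitted fold, uncertain for genes near 0 in Zic2 KO cells, it was 5 for the 859 genes raised at least 4-fold. For the 315 raised at least 16-fold it was 4, against 14.5 for the 162 lowered at least 4-fold. For the 79 switched-on genes with a window it was 3, and for the 62 genes that were at 0.1 CPM or less in Zic2 KO cells and not called it was 5.5. At least 10 CG stood in 77.6% of all windows, in 8.86% of those of switched-on genes and in 27.4% of those of the latter. Searched on both strands, CACGTG, the E-box read by Max and its partners, stood in 9.97% of all windows, 10.2% of those of raised and 8.58% of those of lowered genes. TTCCCGC, an E2F-like element, stood in 8.21%, 6.43% and 9.34%, and the octamer ATGCAAAT in 1.46%, 2.01% and 1.42%. GAAA, any 2 bases and GAAA, a pattern added after the values had been seen, stood in 2.84% of all windows and in 4.89% of those raised at least 4-fold, 4.32% of those lowered at least 4-fold and 3.8% of those of switched-on genes. A match is a run of letters, not a site of binding.

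The Mage genes, which are normally expressed in the testis and in tumours and lie on X but for Mageb3 on chromosome 2, held the largest values of any list. Of 15 listed genes 10 were tested, and 8 of them rose and 0 fell, beside 20% and 15.9% of all genes tested. The median log2 fold change was 8.94 beside 0.00322 over all genes tested. Most of these genes were at or near 0 in Zic2 KO cells. Such genes pass the filter on low counts only through groups in which they are higher. The direction and the median of the list are therefore no result. Mage proteins bind ubiquitin ligases. In Magea8 the Zic2 KO libraries had 0 and 0.041 CPM and the double KO libraries 18.6 and 19.4 CPM. With 1 count over the Zic2 KO group and 1082 over the double KO group, the ratio was 913, with an exact 95% interval of 164 to 36100 that covers counting error only. Magea4 stood at 0.126 and 0.205 against 39.2 and 34.9 CPM (7.75 ± 0.27, adjusted p = 1.2e-08, edgeR). Magea10 had 0.0421 and 0 against 18.6 and 16.2 CPM, a ratio of 840 (150 to 33200). Every double KO library was far above every Zic2 KO library for these genes.

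Magea3, Magea5 and Magea6 had no count in either Zic2 KO library. In the double KO libraries Magea5 stood at 9.07 and 7.74 CPM, Magea3 at 5.56 and 5.8 CPM and Magea6 at 6 and 9.53 CPM. With the Zic2 KO group set to a floor of 3 counts, these genes were at least 135-fold, 91.1-fold and 123-fold higher. Mageb1 (at least 32.1-fold) and Mageb18 (at least 8.44-fold) rose from 0 as well. The exceptions were Mageb16, already at 33 and 31.3 CPM in Zic2 KO cells and at 40.4 and 34.9 CPM in double KO cells (adjusted p = 0.258, edgeR), and Mageb3 (0.126 and 0.123 against 0.337 and 0.256 CPM, adjusted p = 0.271). Reads of near-identical Magea copies can be shared or dropped in counting, so the split between these copies is uncertain.

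Other genes were named for the size or the p-value of their rise. Nlrp4c, an oocyte and germline member of the Nlrp family on chromosome 7, stood at 0.885 and 1.35 CPM in Zic2 KO and at 135 and 120 CPM in double KO cells (6.82 ± 0.23, adjusted p = 1.9e-09, edgeR). Pkd2l1, a cation channel subunit, stood at 1.6 and 1.39 against 69.1 and 77.9 CPM (5.61 ± 0.13, adjusted p = 4.36e-11). Efhc2, an X-linked gene of ciliary microtubules, stood at 0.843 and 1.07 against 80.2 and 91.3 CPM (6.48 ± 0.27). Ddx60, a helicase of the antiviral response, stood at 0.0843 and 0.123 against 47.9 and 45.5 CPM (8.74 ± 0.40, adjusted p = 4.57e-08). In each of these genes the 2 clones of a group lay close together and the groups lay far apart.

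Among the other genes chosen for the size of their rise, Tspan2os, Gml, Gml2 and Nt5el had no count in Zic2 KO cells. Tspan2os, a non-coding RNA antisense to Tspan2, stood at 14.7 and 3.8 CPM in the double KO clones, at least 152-fold higher, and reads of an antisense gene and its partner may not have been told apart. Gml2 and Gml, which encode GPI-anchored proteins of the Ly6 family, stood at 7.38 and 7.63 CPM and at 4.79 and 6.13 CPM, at least 120-fold and 87.2-fold higher. Nt5el, a 5′-nucleotidase relative, stood at 5.93 and 4.6 CPM, at least 84.9-fold higher. Ube2dnl1, an X-linked ubiquitin-conjugating enzyme relative, had 0 and 0.041 against 16.8 and 8.83 CPM, a ratio of 624 (112 to 24700).

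**Figure D2:**
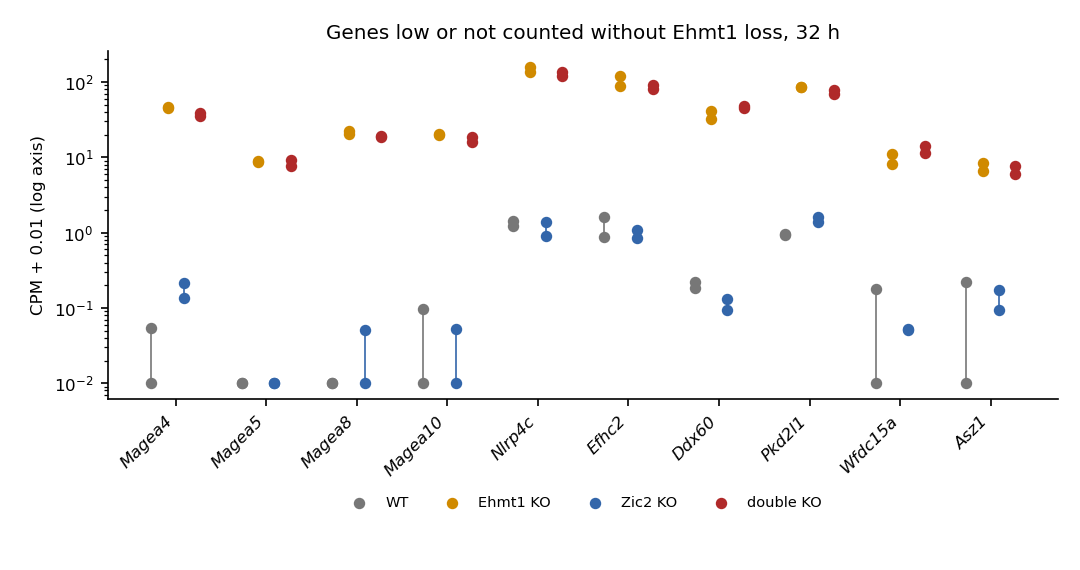
Level of 10 raised genes in each library at 32 h (y axis, CPM plus 0.01, log axis), with 1 point per library and a line joining the 2 libraries of WT (grey), Ehmt1 KO (orange), Zic2 KO (blue) and double KO (red). WT and Zic2 KO libraries lie at the bottom for every gene, and both groups without Ehmt1 lie well above them, as for Ddx60 at 47.9 and 45.5 CPM in the double KO and 41 and 32.2 CPM in the Ehmt1 KO.

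Germline genes as a list split in both directions. Of 37 tested, 12 rose and 10 fell, beside 20% and 15.9% of all genes, with a median log2 fold change of 0.27. Off chromosomes 11 and 16, 11 rose and 8 fell. The called members that started near 0 in Zic2 KO cells, Wfdc15a and Asz1 among them, were all among those that rose. Such genes pass the filter on low counts mainly through groups where they are higher. For them the direction is therefore no result. Among those that rose, Wfdc15a, a testis protease inhibitor, went from 0.0421 and 0.041 to 14.2 and 11.5 CPM, a ratio of 311 (85.7 to 2570). Asz1, a protein of the piRNA pathway, went from 0.0843 and 0.164 to 5.97 and 7.67 CPM (5.71 ± 0.56, adjusted p = 1.42e-05, edgeR). Smc1b, the meiotic cohesin subunit, went from 2.57 and 2.25 to 55.7 and 29.8 CPM (4.15 ± 0.49, adjusted p = 5.8e-05). Dazl, an RNA-binding protein of germ cells, went from 13.6 and 12.6 to 26 and 26.2 CPM, a call lost without Zic2 KO clone 2 (adjusted p = 0.058). Among those that fell, Zcwpw1, a reader of histone methylation in meiosis, went from 30 and 29.5 to 11.7 and 12.8 CPM (-1.28 ± 0.16), and Tex11, an X-linked meiotic gene, from 17.4 and 20.5 to 6.57 and 7.08 CPM (-1.47 ± 0.21). Meioc, which sustains meiosis, fell too (-1.30 ± 0.21) although it lies on chromosome 11, while Tex19.1 on that chromosome rose (2.39 ± 0.54).

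Of PRC1.6, the Polycomb complex that holds germline genes silent, 12 genes were tested and 2 rose and 4 fell, beside 20% and 15.9% of all genes. Tfdp1, the dimer partner of E2f6, went from 343 and 321 to 124 and 117 CPM (-1.46 ± 0.18, adjusted p = 8.81e-05, edgeR). E2f6 itself went from 44 and 41.2 to 25.8 and 29.6 CPM (-0.62 ± 0.13, adjusted p = 0.00262). Max and L3mbtl2 rose, by 0.61 ± 0.10 and 0.88 ± 0.18 (adjusted p = 0.000664 and 0.00238). The falls of Cbx3 (-0.60) and Ring1 (-0.54) were less secure: without Zic2 KO clone 1 the adjusted p was 0.052 and 0.11, and Ring1 also lost its call without Zic2 KO clone 2 (0.15) or double KO clone 2 (0.32).

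Of 20 genes for H3K9 methylation and its partners, 2 rose and 5 fell, Ehmt1 among them, with a median of -0.10. For this list and the DNA methylation list below, the shares over all genes tested were 20% higher and 15.9% lower. Suv39h2, another H3K9 methyltransferase, went from 61.3 and 61.7 to 45.1 and 47.7 CPM (-0.41 ± 0.10, adjusted p = 0.00868, edgeR). Zfp644, a DNA-binding partner of the Ehmt1 and Ehmt2 complex, went from 107 and 95.7 to 72.5 and 64.5 CPM (-0.57 ± 0.15), and Kdm3a, an H3K9 demethylase, from 245 and 230 to 352 and 321 CPM (0.50 ± 0.14). Prdm2, a methyltransferase relative, rose from 102 and 101 to 139 and 141 CPM (0.47 ± 0.11, adjusted p = 0.00498) and kept its call under every alternative. The calls of Suv39h2, Zfp644 and Kdm3a were less secure. Without Zic2 KO clone 1 Zfp644 and Kdm3a lost theirs (0.09 and 0.051), without Zic2 KO clone 2 Suv39h2 and Kdm3a (0.053 and 0.098), without double KO clone 1 the same pair (0.061 and 0.066), and without double KO clone 2 Zfp644 (0.11). Zfp281, the factor named in the title of the series, went from 209 and 209 to 150 and 155 CPM (-0.45 ± 0.14, adjusted p = 0.0203), a call lost without any 1 of the 4 libraries (0.08 to 0.11). Of 15 DNA methylation genes 0 rose and 3 fell, of which Tdg, a glycosylase that removes oxidised methylcytosine, fell from 74.2 and 77.4 to 49.3 and 52.7 CPM (-0.57 ± 0.12, adjusted p = 0.0033). Dnmt3b stood at 959 and 934 against 637 and 719 CPM, with an adjusted p of 0.0507.

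Genes of the naive network were higher at 32 h in the double KO. Of 20 listed and tested genes 12 rose and 1 fell, beside 20% and 15.9% of all genes. The median log2 fold change was 1.4 beside 0.00322 for all genes, and 11 rose and 1 fell off chromosomes 11 and 16. Esrrb, an orphan nuclear receptor of the naive state (Entrez 26380, chr12:86361117-86521628), stood at 45 and 56.8 CPM in the Zic2 KO and at 215 and 246 CPM in the double KO libraries. The groups did not overlap (2.18 ± 0.14, adjusted p = 4.69e-07, edgeR). In 2i the same gene stood at 760 and 753 CPM against 597 and 671 CPM, so that the double KO was not above the Zic2 KO there. Nanog, a homeodomain factor (chr6:122707489-122714633), stood at 81.4 and 82.8 against 347 and 359 CPM (2.10 ± 0.16), and at 695 and 775 against 811 and 749 CPM in 2i. Klf4 (chr4:55527137-55532475) stood at 1.9 and 2.62 against 23 and 25.7 CPM (3.42 ± 0.19).

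Further factors of the network followed. Prdm14, which represses Fgf receptors and Dnmt3b, stood at 2.57 and 2.38 against 18.9 and 24 CPM (3.11 ± 0.25), and Tcl1, a cofactor of Akt, at 5.86 and 7.86 against 46 and 51.4 CPM (2.83 ± 0.22). Zfp42, the Rex1 gene of the reporter, stood at 112 and 105 against 364 and 324 CPM (1.66 ± 0.14), which was also about its level in 2i (289 and 325 CPM in Zic2 KO, 346 and 372 CPM in double KO cells). Tbx3, Tfcp2l1 and Nr5a2 rose by 2.65 ± 0.25, 1.39 ± 0.18 and 1.41 ± 0.16, and Zfp57, which guards imprints, by 0.53 ± 0.09. Jam2, a junction protein on chromosome 16, rose in both clones alike, from 5.01 and 5.2 to 76.1 and 80.1 CPM (3.93 ± 0.30). Dppa3 rose unevenly, from 4.3 and 3.52 to 144 and 48.3 CPM (4.62 ± 1.10, adjusted p = 0.00643), and its adjusted p was 0.054 and 0.066 without Zic2 KO clone 1 or 2.

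Gbx2 was the member that fell, from 53.2 and 63.6 to 8.97 and 21.9 CPM (-1.92 ± 0.44, adjusted p = 0.00512, edgeR). It is a homeodomain factor downstream of Stat3, and in WT cells it rose in exit by 1.95 on the log2 scale. Klf2 (110 and 147 against 180 and 210 CPM) and Nr0b1 (40.5 and 53.7 against 67.7 and 77.6 CPM) did not overlap between groups but missed the threshold (adjusted p = 0.0528 and 0.0622). Both passed it in the fit of the compared groups alone (0.028 and 0.024), with the clone block (0.023 and 0.0078), without chromosomes 11 and 16 (0.039 and 0.044) and with DESeq2 (0.028 and 0.04). Tet2, Fgf4 and Dppa5a lay at adjusted p of 0.583, 0.531 and 0.64.

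**Figure D3:**
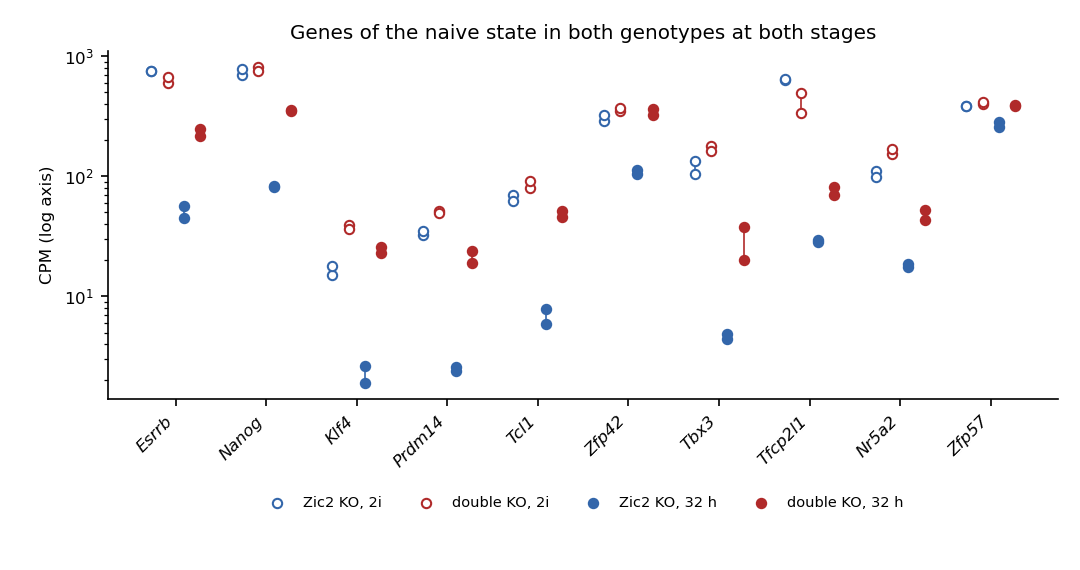
Level of 10 genes of the naive state in each library (y axis, CPM, log axis), with open circles for 2i and filled circles for 32 h, blue for Zic2 KO and red for double KO. In 2i the order of the genotypes varies between genes, while at 32 h both double KO libraries lie above both Zic2 KO libraries for all 10 genes, as for Esrrb at 215 and 246 against 45 and 56.8 CPM.

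Signals that act on stem cells moved with the naive genes in part. For the 3 lists of this paragraph, the shares over all genes tested were 20% higher and 15.9% lower. The counts of the Fgf and Erk list and of the Wnt list lay near these shares. Of 15 genes of the Nodal and Bmp pathways 6 rose and 0 fell, with a median of 0.86. The ligand Nodal stood at 36.2 and 37.1 against 111 and 236 CPM (2.24 ± 0.28, adjusted p = 8.46e-05, edgeR). Its feedback inhibitors and targets Lefty1 and Lefty2 stood at 41.1 and 56 against 152 and 179 CPM (1.77 ± 0.36) and at 12.9 and 17.4 against 68.1 and 63.9 CPM (2.12 ± 0.28). Id3, a Bmp target, stood at 16.3 and 15.6 against 32.4 and 25.2 CPM (0.86 ± 0.16), and Smad7, an inhibitor of both branches, rose by 1.29 ± 0.27. Tdgf1, the Nodal coreceptor, stood at 136 and 167 against 234 and 460 CPM (1.20 ± 0.28) and missed the threshold without Zic2 KO clone 1 or double KO clone 2 (adjusted p = 0.057 and 0.078). Of 17 targets of Fgf and Erk 4 rose and 3 fell, among them Egr1, an immediate early gene, from 16.4 and 19.2 to 109 and 67.9 CPM (2.31 ± 0.32), and Spred1, a Ras inhibitor, from 188 and 161 to 57.9 and 57.7 CPM (-1.59 ± 0.23). Of 15 Wnt targets 2 rose and 2 fell, and off chromosomes 11 and 16 it was 0 and 2 of 10: Notum on chromosome 11 rose by 1.92 ± 0.24.

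Of 12 genes of general pluripotency 2 rose and 3 fell, with a median of -0.04, beside 20% and 15.9% of all genes. Lin28a, an RNA-binding protein that blocks let-7 (chr4:134003330-134019196), went from 1232 and 1159 to 569 and 625 CPM (a log2 fold change of -1.0 ± 0.13, adjusted p = 9.53e-05, edgeR), and its relative Lin28b from 91.4 and 80 to 34.4 and 41.7 CPM (-1.17 ± 0.18). Sox2 went from 127 and 159 to 230 and 276 CPM (0.82 ± 0.17, adjusted p = 0.00256). Pou5f1 differed by -0.07 ± 0.11 (adjusted p = 0.643). Dppa2, on chromosome 16, was called (0.43 ± 0.16, adjusted p = 0.0448) but stood at 177 CPM in clone 1 and 264 CPM in clone 2, against 162 and 165 CPM. Its adjusted p was 0.49 without double KO clone 2, and 0.16 and 0.15 without Zic2 KO clones 1 and 2.

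Of 19 formative genes 3 rose and 5 fell, beside 20% and 15.9% of all genes, with a median of -0.43. The number that rose (Otx2, Etv5 and Nrcam) was 0 without Zic2 KO clone 1, Zic2 KO clone 2 or double KO clone 2, and the number that fell was 4 to 6 without any 1 library. Lef1, the Wnt effector, went from 173 and 207 to 80.7 and 91.2 CPM (-1.15 ± 0.20), and Sall2 from 207 and 194 to 108 and 87.7 CPM (-1.04 ± 0.19). The Sox factors Sox3 and Sox4 went from 32.7 and 48 to 9.54 and 15.7 CPM (-1.68 ± 0.31) and from 45.4 and 62.2 to 9.88 and 12 CPM (-2.30 ± 0.42), all with adjusted p from 0.001 to 0.00133 (edgeR). Otx2, a driver of the formative state, stood at 70.6 and 72.9 against 89.8 and 106 CPM (0.45 ± 0.15, adjusted p = 0.037), a call lost without either Zic2 KO clone or double KO clone 2 (0.12 to 0.19). Etv5 on chromosome 16 stood at 303 and 340 against 425 and 837 CPM and lost its call without double KO clone 2 (0.25) or Zic2 KO clone 1 or 2 (0.1 and 0.064). The hallmark genes Fgf5 (7.59 and 5.98 against 5.26 and 25.7 CPM) and Pou3f1 (56.6 and 74.5 against 24.5 and 107 CPM) overlapped between groups, with the double KO clones on either side of the Zic2 KO clones.

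Among the genes named for the size of their fall, Sox1, a factor of neural progenitors (chr8:12395519-12399555), stood at 58.4 and 72.9 CPM in Zic2 KO and 0.876 and 0.73 CPM in double KO cells (-6.34 ± 0.59, adjusted p = 1.03e-05, edgeR). Nkx1-2, of early neural and axial progenitors, stood at 6.95 and 8.44 against 0.371 and 0.256 CPM (-4.59 ± 0.55), Sp8 at 24.8 and 32.4 against 1.11 and 1.42 CPM (-4.49 ± 0.69) and Tbx15 at 6.07 and 4.46 against 0.202 and 0.365 CPM (-4.20 ± 0.61). Hoxb1, an anterior Hox gene, fell by 4.72 ± 0.53 on the log2 scale although it lies on chromosome 11. Ccnd2, cyclin D2 (chr6:127125162-127152188), stood at 62.7 and 64.5 against 2.43 and 4.23 CPM (-4.26 ± 0.74, adjusted p = 0.000872). Both double KO clones were low for each of these genes.

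Further falls were named for size or p-value. Slc38a1, a glutamine transporter, stood at 238 and 231 against 33.1 and 34.8 CPM (-2.79 ± 0.21, adjusted p = 2.39e-06, edgeR), the chemokine Cxcl12 at 45.9 and 42.9 against 6.94 and 7.56 CPM (-2.61 ± 0.19), and Spats2 at 78.7 and 78 against 25.2 and 24.8 CPM (-1.65 ± 0.10). Tll1, Ndnf and Igfbp5, a protease of the Bmp1 family and secreted factors, fell too, with log2 fold changes of -4.07 ± 0.53, -3.72 ± 0.37 and -3.48 ± 0.35.

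**Figure D4:**
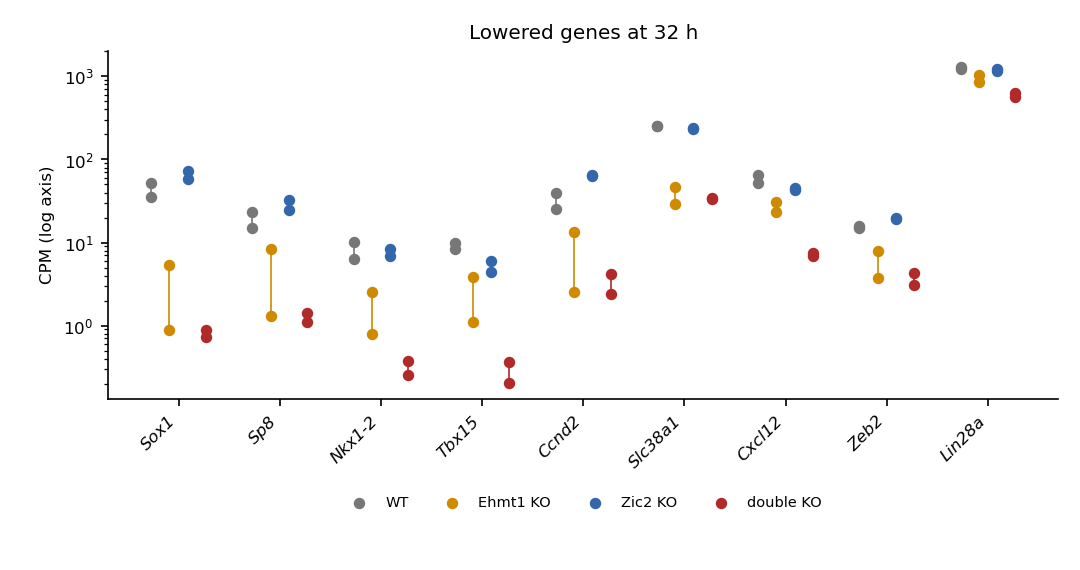
Level of 9 lowered genes in each library at 32 h (y axis, CPM, log axis), with 1 point per library and a line joining the 2 libraries of WT (grey), Ehmt1 KO (orange), Zic2 KO (blue) and double KO (red). For each gene both double KO libraries lie below both Zic2 KO libraries, as for Slc38a1 at 33.1 and 34.8 against 238 and 231 CPM.

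Of 8 tested genes of the neural list 2 rose and 5 fell, beside 20% and 15.9% of all genes, with a median of -1.94. Beside Sox1, Zic1 fell from 2.44 and 2.58 to 0 and 0.146 CPM (-5.05 ± 0.73) and Pax6 from 39.2 and 32.6 to 10.5 and 11.8 CPM (-1.69 ± 0.35), while the cytoskeletal genes Nes and Tubb3 rose, from 12 and 12.5 to 43.1 and 49.5 CPM (1.92 ± 0.19) and from 80.4 and 74.6 to 133 and 178 CPM (1.00 ± 0.15). The number of falls was 3 without Zic2 KO clone 1 and 3 without either double KO clone. Cdh2, N-cadherin, fell from 47.2 and 44.4 to 13 and 16.6 CPM (-1.63 ± 0.17) and Zeb2, a repressor that drives neural fate, from 20 and 19.2 to 3.1 and 4.34 CPM (-2.40 ± 0.35).

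Of 14 p53 targets 6 rose and 0 fell (median 0.42), and 5 of 13 off chromosomes 11 and 16, a count that was 3 of 14 without double KO clone 2. Trp53inp1, a stress-induced partner of p53, stood at 223 and 173 against 385 and 470 CPM (1.11 ± 0.17) and Phlda3, an Akt inhibitor, at 42 and 42.4 against 68.2 and 75.3 CPM (0.77 ± 0.16). Of 31 imprinted genes 6 rose and 8 fell. For both the p53 and the imprinted list, the shares over all genes tested were 20% higher and 15.9% lower. Plagl1, a growth regulator, went from 2.11 and 2.01 to 17.1 and 18.5 CPM (3.11 ± 0.31, adjusted p = 1.65e-05, edgeR), and the maternally expressed RNAs Rian and Mirg of the Meg3 cluster fell from 550 and 673 to 180 and 223 CPM (-1.60 ± 0.30) and from 49.3 and 64.3 to 14.8 and 16 CPM (-1.88 ± 0.38). Rtl1, the protein-coding gene of that cluster, fell as well (-1.70 ± 0.33), and its antisense RNA may share reads with it. Meg3 itself (-1.10 ± 0.34, adjusted p = 0.0233) lost its call without Zic2 KO clone 2 or either double KO clone (0.061 to 0.14).

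Lists of other lineages and of metabolism were counted in the same way, beside 20% of all genes called higher and 15.9% called lower. Of 12 trophoblast genes 6 rose and 0 fell. Tfap2c, which germ cells share, went from 13.5 and 8.64 to 35 and 24.6 CPM (1.43 ± 0.27, adjusted p = 0.0015, edgeR), and Elf5, Krt7, Ascl2 and Plac1 were called as well. These 4 genes lost their call without double KO clone 2 (adjusted p = 0.066 to 0.24), the clone with the highest sum of trophoblast markers (10.6 CPM, against 4.45 CPM in clone 1), and without Zic2 KO clone 2 (0.053 to 0.19). Elf5, Ascl2 and Plac1 also lost it without Zic2 KO clone 1 (0.054 to 0.1). Of 15 primitive endoderm genes 5 rose and 2 fell, with Hnf4a rising from 0.211 and 0.41 to 4.65 and 4.09 CPM (3.79 ± 0.35) and Gata4 falling from 8.34 and 8.03 to 1.38 and 2.81 CPM (-1.97 ± 0.42). Of 15 tested genes of the 2-cell-like state 5 rose and 0 fell, led by Usp17la (3.96 and 3.19 against 16.3 and 33.5 CPM, 2.80 ± 0.43), whose copies can share reads. Of 17 genes of oxidative phosphorylation 0 rose and 0 fell, of 22 ribosomal protein genes 0 rose and 2 fell, and of 16 glycolysis genes 1 rose (Pfkp, 1.66 ± 0.19) and 2 fell (Pdk1, -1.12 ± 0.14, and Eno1, -0.48 ± 0.13, whose call was lost without any 1 library, at 0.051 to 0.07). Of 9 genes of the Lif and Stat3 pathway 1 rose (Stat3, on chromosome 11, 0.87 ± 0.22) and 1 fell (Cish, a feedback inhibitor, -1.05 ± 0.28). Of 9 primitive streak genes Eomes rose and Fst fell, of 8 fibroblast genes Col1a2 and Thy1 rose and Col6a2 and Tagln fell, and of 13 cadherin and epithelial genes Fn1 and Snai1 rose and Cdh2 and Zeb2 fell. Of these, Cdh2, Zeb2 and Fn1 kept their calls without any 1 library. Col1a2, Thy1 and Snai1 lost theirs without double KO clone 2 (adjusted p = 0.42, 0.2 and 0.46), whose fibroblast marker sum was 15.4 CPM against 8.33 CPM in clone 1, and, with Eomes, without either Zic2 KO clone (0.067 to 0.16). Eomes lost its call without double KO clone 2 too (0.073). Stat3, Fst, Col6a2 and Tagln lost theirs without Zic2 KO clone 1 (0.074, 0.074, 0.058 and 0.062). Cish and Col6a2 did so without Zic2 KO clone 2 (0.077 and 0.074), and Cish, Fst and Col6a2 without double KO clone 1 (0.082, 0.063 and 0.1).

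Whether the response depended on the stage was asked with the same genotypes in 2i, from other libraries of the same clones. The test did not pair the stages within a clone. There 5358 genes (34.2%) were called, 2974 higher (19%) and 2384 lower (15.2%), and 2945 and 3101 without Zic2 KO clone 1 or 2. Of the genes raised at 32 h, 1992 were raised in 2i too, 63.5% of the first list and 67% of the second. Of those lowered, 1380 were lowered in 2i, 55.3% and 57.9%. The stage difference itself, as an interaction, was called for 475 genes (3.03%), 291 higher (1.86%) and 184 lower (1.17%) at 32 h relative to 2i (edgeR), for 850 genes with DESeq2, and for 156 to 178 or 132 to 170 genes without 1 of the Zic2 KO libraries in 2i or at 32 h. Of the 291 genes, 263 also fell as WT cells left 2i, and of the 184, 158 rose in WT exit. Among all 15667 genes tested, 2785 fell and 2802 rose in WT exit.

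The naive list turned on stage: in 2i 6 of its members were higher, 3 lower and the median 0.09, and the interaction was called higher for 10 and lower for 1 of its 20 members. Esrrb differed between stages by 2.43 ± 0.19 (adjusted p = 0.000133, edgeR), the smallest p of all genes, Nanog by 2.02 ± 0.22 and Klf4 by 2.22 ± 0.25 (both 0.00106). The member that went the other way was Socs3, the Stat3 feedback inhibitor on chromosome 11 (-2.79 ± 0.46, adjusted p = 0.00698). It stood at 0.628 and 0.791 CPM in Zic2 KO and 4.77 and 7.25 CPM in double KO cells in 2i, and at 4.8 and 4.22 against 4.01 and 6.94 CPM at 32 h. Lefty2 differed by 3.25 ± 0.39, with 292 and 393 CPM in Zic2 KO and 160 and 154 CPM in double KO cells in 2i, below rather than above the Zic2 KO. Egr1 differed by 3.27 ± 0.44 in the same manner, and Plagl1 by 2.78 ± 0.39. Magea4 showed no called stage difference (0.64 ± 0.51, adjusted p = 0.743), with 0.209 and 0.326 against 41.4 and 35.2 CPM in 2i.

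Among the genes whose difference was lower at 32 h, several had stood above the Zic2 KO level in 2i. Lrp2, an endocytic receptor, stood at 10.2 and 8.19 CPM in Zic2 KO and 56.9 and 45.1 CPM in double KO cells in 2i, and at 249 and 208 against 117 and 112 CPM at 32 h (interaction -3.48 ± 0.37, adjusted p = 0.00106, edgeR). Tnfsf11, the cytokine RANKL, stood at 0.0523 and 0.0465 against 1.19 and 1.07 CPM in 2i, and at 22.8 and 19.9 against 12.6 and 11.5 CPM at 32 h. Maml2, a Notch coactivator, was at 2.46 and 2.7 against 28.1 and 19.7 CPM in 2i and at 9.9 and 9.38 against 7.52 and 8.69 CPM at 32 h. Dnmt3b, the de novo methyltransferase, followed the same course, from 165 and 134 against 240 and 375 CPM in 2i to 959 and 934 against 637 and 719 CPM at 32 h (interaction -1.52 ± 0.25, adjusted p = 0.00748). At 32 h the calls of Lrp2 and Tnfsf11 were lost without Zic2 KO clone 1 (adjusted p = 0.059 and 0.085) or double KO clone 2 (0.054 and 0.081).

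The same question was put to all genes that change as WT cells leave 2i, defined in WT libraries that the comparison does not use. Of 2785 genes that fell in WT exit, 31.2% were higher in the double KO at 32 h and 8.76% lower, with a median log2 fold change of 0.20, beside 20% and 15.9% of all genes. Of 2802 that rose in WT exit, 14.3% were higher and 30.5% lower, with a median of -0.22. Off chromosomes 11 and 16 the shares were 29.6% and 9.56%, and 13.8% and 31.6%. Of the 441 genes that fell at least 4-fold in WT exit, 240 were higher in the double KO and 14 lower, with a median of 1.29. Of the 797 that rose at least 4-fold, 147 were higher and 233 lower, with a median of -0.36. In 2i, of the genes that fall in exit 11.5% were higher and 26.5% lower, and of those that rise 28.2% were higher and 12.2% lower, beside 19% and 15.2% of all genes. With ribosomal RNA-depleted WT libraries defining exit, the shares in 2i were 13.5% and 23.9% for genes that fall, and 20.2% and 17% for genes that rise, the latter near those of all genes.

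Loss of Ehmt1 was also measured in cells with no Zic2 KO label, as Ehmt1 KO against WT at 32 h, with no library in common. That comparison called 4163 genes (26.6%), 2372 higher (15.1%) and 1791 lower (11.4%), a count of 2203 and 2191 without either WT library and 2484 without Ehmt1 KO clone 1. Of the genes raised on the Zic2 KO, 1990 were raised there, 63.5% of the first list and 83.9% of the second, and 0 were called lower. Of the lowered genes 1346 were lowered there, 53.9% and 75.2%, and 1 was called higher. Across the 15667 genes, which are not independent replicates, the log2 fold changes had a Pearson r of 0.889 and a Spearman rho of 0.815, and 0.89 and 0.814 off chromosomes 11 and 16.

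**Figure D5:**
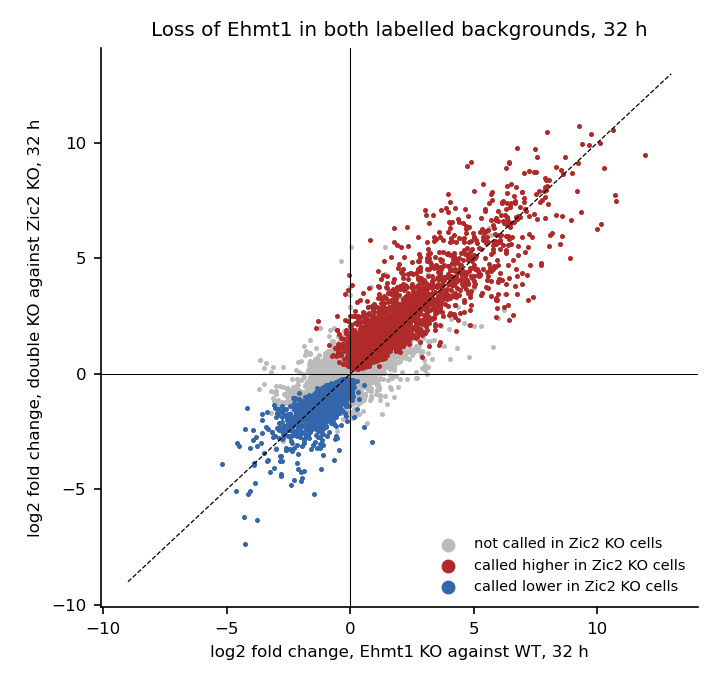
Log2 fold change on loss of Ehmt1 at 32 h as Ehmt1 KO against WT (x axis) and as double KO against Zic2 KO (y axis), with 1 point per gene for 15667 genes, coloured by the call in double KO against Zic2 KO, and a dashed line of equal values. The points lie along the dashed line, with a Pearson r of 0.889 across genes.

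The difference between the backgrounds was tested itself and called for 0 genes (0%, edgeR, smallest adjusted p = 0.421), with 890 genes (5.68%) at an unadjusted p under 0.05. DESeq2 called 15 genes, and without Ehmt1 KO clone 1 edgeR called 1. Its median standard error was 0.29 on the log2 scale against 0.205 for the 32 h comparison. With 2 clones a group, differences well above that size were not called either. Among them were Lefty2 (1.36 ± 0.40, adjusted p = 0.647, edgeR) and Esrrb (0.68 ± 0.19, adjusted p = 0.578). The 0 calls therefore do not show that the backgrounds respond alike. Values side by side are given for some named genes and do not show the full range. Cish fell more against WT, by 2.30 ± 0.29 beside 1.05 ± 0.28 on the Zic2 KO, on the log2 scale. Esrrb rose by 2.18 ± 0.14 on the Zic2 KO and by 1.49 ± 0.14 against WT, Nanog by 2.10 ± 0.16 and 1.56 ± 0.16, and Zfp42 by 1.66 ± 0.14 and 1.55 ± 0.14. Cxcl12 fell by 2.61 ± 0.19 and 1.11 ± 0.18 on the log2 scale, with 6.94 and 7.56 CPM in the double KO, 23.5 and 30.6 CPM in the Ehmt1 KO, and 52.6 and 64.6 CPM in WT cells. Sox1 fell by 6.34 ± 0.59 and 3.76 ± 0.51, where the Ehmt1 KO clones stood apart at 0.884 and 5.42 CPM. The formative genes Lef1 and Sall2, which fell on the Zic2 KO, stood at -0.32 ± 0.20 and -0.32 ± 0.19 in Ehmt1 KO against WT (adjusted p = 0.267 and 0.236). Of the formative list 1 rose and 0 fell there, against 3 and 5 on the Zic2 KO, and the difference was called for no gene of the list.

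Xist, the RNA that silences X in female cells, stood at 8.05 and 7.62 CPM in Zic2 KO and 15.1 and 28.6 CPM in double KO cells (1.48 ± 0.40, adjusted p = 0.0115, edgeR), a call lost without either Zic2 KO clone or double KO clone 2 (0.063 to 0.12). X-linked genes at 5 CPM or more had medians near 0 in both clones, as given above. When genes on X were left out before the fit, 5376 genes were called among 15048.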

How the data were processed

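The authors deposited raw read counts per gene, with Entrez identifiers, for each polyA and ribosomal RNA-depleted library. The submitters' processing notes name GRCm38 (mm10) and edgeR, with the aligner, counter, annotation and use of strand not given in the sources used here. Of 24116 genes in the table, 24061 matched a RefSeq symbol and 55 did not, and 0 columns were left without a sample. A separate table of 16 h libraries was not used.

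The 16 polyA libraries of 8 groups (2 libraries each) were fitted together in edgeR 4.0.16 (R 4.3.3, limma 3.58.1), with TMM scaling and filterByExpr (minimum count 10, minimum total 15), which left 15667 genes, 5% false discovery by the Benjamini-Hochberg adjusted p of the quasi-likelihood test over all genes, and 1 coefficient per group. All adjusted p-values printed are from this test unless DESeq2 (1.42.0) is named, whose missing adjusted p stayed missing. CPM are TMM-scaled, fold changes are on the log2 scale, and the standard error is the size of the fold change over the square root of its F value. For a group with no count the fold is a lower bound that sets the group to 3 counts in all, and ratios of 1 to 3 counts have exact 95% intervals that cover counting error only. Near-identical copies, overlapping genes and antisense genes may share reads.

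Libraries of a group differed by a chi-square per gene of 6.39 or more, far above counting noise, so no pair is 1 library in 2 copies. At 32 h it was 6.39 in Zic2 KO and 25.1 in double KO cells, while the fit pooled the spread over groups. The deviations of equal clone numbers from their group means correlated by -0.041 at 32 h and -0.11 in 2i across genes (n = 10646), and those of Ehmt1 KO and double KO at 32 h by 0.23. Clone numbers were not taken to pair the genotypes. Between 2i and 32 h the deviations of the same clones correlated by 0.42 in Zic2 KO and 0.64 in double KO cells. The main fit, and with it the test of the stage difference, took these libraries as independent. Named genes are the targeted genes, up to 10 per direction by fold (at least 5 CPM, no overlap) and 5 by adjusted p, up to 5 per list, up to 5 per direction of the stage difference, and members of the core lists. 1 gene that met this rule is not reported here. The comparison and its 25 gene lists were chosen with earlier results of these data known, and 2 further lists were added after values had been seen. Alternatives were DESeq2 scaling and testing, limma-voom, no filter, the compared groups alone, clone blocks, leaving out X, leaving out chromosomes 11 and 16, ribosomal RNA-depleted WT for exit, and leaving out each library.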

Additional observations from a re-analysis of the deposited data

Results flagged for a closer look

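The effect of Ehmt1 loss on the Zic2 KO differed between 32 h and 2i for 475 genes, by a test of that difference (interaction, edgeR, n = 2 libraries per group). Values below are the log2 fold change at 32 h minus that in 2i, with Benjamini-Hochberg adjusted p-values, for the 31 of these genes that are named here.

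Higher at 32 h relative to 2i were genes of the naive state: Esrrb (2.43, adjusted p = 0.000133), Klf4 (2.22, 0.00106), Nanog (2.02, 0.00106), Prdm14 (2.52, 0.00205), Tcl1 (2.44, 0.00134), Zfp42 (1.43, 0.00206), Tbx3 (2.13, 0.00505), Tfcp2l1 (2.01, 0.00158), Jam2 on chromosome 16 (1.52, 0.0484) and Nr0b1 (1.4, 0.0488). Of signalling genes, Nodal (1.52, 0.0479), Lefty1 (2.69, 0.0123), Lefty2 (3.25, 0.00112), Id3 (1.64, 0.00297) and Egr1 (3.27, 0.0025) were higher, as were the imprinted gene Plagl1 (2.78, 0.00305) and the primitive streak gene Eomes (2.35, 0.00651). Lrrc31 (3.68), Xpnpep2 (4.79) and Myof (2.13), each with an adjusted p of 0.00106, were named for their small p.

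Lower at 32 h relative to 2i were Nkx1-2 (-3.53, adjusted p = 0.0153), Ndnf (-3.43, 0.0253), Socs3 on chromosome 11 (-2.79, 0.00698), Lin28b (-1.21, 0.025), Dnmt3b (-1.52, 0.00748), Tubb3 (-1.04, 0.0202) and Cdh2 (-2.11, 0.00106). Maml2 (-3.46), Lrp2 (-3.48), Tnfsf11 (-5.2) and Brsk2 (-3.35) each had an adjusted p of 0.00106.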

How the results depend on the processing

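No named gene changed sign while called, in any alternative run. Leaving out each library in turn gave 3131 to 4430 called genes at 32 h, 2945 to 4811 in 2i, 132 to 599 for the stage difference, 2191 to 3732 for Ehmt1 KO against WT, and 0 to 1 for the difference between backgrounds. With DESeq2 the stage difference was called for 850 genes and the background difference for 15. With ribosomal RNA-depleted WT libraries defining exit, 33.3% of the genes that fall were higher and 32.3% of those that rise were lower. With the clone number as a replicate block over 12 KO libraries, 6001 genes were called at 32 h, against 5283 without the block, and the block changed no count by over 1.5 times. No paired analysis was possible because WT libraries carry no clone number, for results that use WT. For the stage difference, a fit that pairs the stages within a clone was not run. The block gives equal clone numbers 1 offset shared by all genotypes and does not model that pairing. Leaving out chromosomes 11 and 16, an alternative chosen after the data had been seen, gave 4980 genes at 32 h, 4816 in 2i and 509 for the stage difference. DESeq2 size factors, no filter and the compared groups alone gave 5624, 5445 and 6080 genes at 32 h, and limma-voom 5892. With 2 clones a group, differences near the median standard error of 0.205 were not resolved.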

Other observations

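The gene groups below were chosen after their values had been seen, and are given as descriptions. Over all genes tested, 20% were called higher and 15.9% lower at 32 h. Of 42 Hox genes, which pattern the body axis, 23 were tested. Of these, 12 fell and 1 rose in the double KO at 32 h. The median log2 fold change was -1.97 beside 0.00322 for all genes tested. Members near 0 in double KO cells pass the filter on low counts mainly through groups where they are higher. The direction and the median of this family are therefore no result. Hoxa5 stood at 3.29 and 2.91 CPM in Zic2 KO and 0.101 and 0.073 CPM in double KO cells, and Hoxa3 at 3.5 and 4.22 against 0.236 and 0.11 CPM. Hoxb2 lies on chromosome 11 and stood at 1.94 and 2.33 against 0.101 and 0 CPM. Hoxc13 was the gene that rose (1.17 ± 0.35, adjusted p = 0.0197, edgeR), a call lost without Zic2 KO clone 1 or 2 or double KO clone 2 (0.07, 0.13 and 0.073).

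Of 25 genes of the amino acid response, which Atf4 drives, 15 fell and 1 rose, with a median of -0.67. Atf4 itself stood at 343 and 353 against 112 and 117 CPM (-1.61 ± 0.14, adjusted p = 6.15e-06, edgeR), and Pck2, Chac1 and Psat1 fell (-2.28, -2.68 and -0.98). Slc38a2, an amino acid transporter, was the gene that rose (0.43 ± 0.16, adjusted p = 0.0462), a call lost without Zic2 KO clone 1 or 2 or double KO clone 2 (0.14, 0.18 and 0.28). In Ehmt1 KO against WT cells 17 fell and 0 rose, beside 11.4% and 15.1% of all genes.

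Of 33 tested interferon-stimulated genes 18 rose and 3 fell, with a median of 1.54, and 15 rose and 3 fell of 28 off chromosomes 11 and 16. Members near 0 in Zic2 KO cells, Ddx60 among them, pass the filter on low counts mainly through groups where they are higher. The direction and the median of the list are therefore no result. Beside Ddx60, Herc6 stood at 1.14 and 1.07 against 21.3 and 41.8 CPM. The 3 that fell were Bst2, from 82 and 85.2 to 13.7 and 13 CPM (-2.65 ± 0.31, adjusted p = 5.02e-05), and the signal mediators Stat2 and Irf9 (-0.65 ± 0.15 and -0.61 ± 0.18), the call of Irf9 being lost without Zic2 KO clone 1 or double KO clone 1 (0.12 and 0.1).

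Multigene families were counted too, beside 20% of all tested genes called higher. Genes near 0 in Zic2 KO cells pass the filter on low counts mainly through the groups where they are higher, so the direction of these counts is no result. Of 6 counted Nlrp4 genes 5 were tested and 5 called higher, of 10 Xlr genes 6 of 7 tested, of 27 Serpinb genes 8 of 10 tested, and of 1108 olfactory receptor genes 10 of 12 tested. Of 32 Pramel genes 5 of 14 tested were called higher (median -0.01), of 7 Mageb genes 2 of 5, and of 31 Rhox genes 4 of 7. Copies within these families can share reads.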
